A study of Mus musculus with 2 samples.

Results

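Interferon-stimulated genes were examined in mouse retina at postnatal day 14, on 1 one-colour Agilent array of wild-type (WT) retina and 1 array of retina labelled Mef2d KO. The members were a given list of 39 genes, and every non-control probe whose RefSeq accession mapped to one of them was taken. No probe matched Mx1 or Mx2, so 37 genes with 45 probes were measured, out of 20666 named genes on the array. Both groups were dissected retina of the same age, and the labels name no treatment. The sources used here do not state strain, sex, number of animals or the Mef2d allele. Each genotype is 1 array, so nothing here could be checked against replicates and no test was run.

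Interferons are secreted proteins that cells release on sensing viral or displaced self nucleic acid. They act through cell-surface receptors and JAK kinases on transcription factors, among them STAT2 and IRF9, that bind a promoter element called the interferon-stimulated response element and switch on a common set of genes. The products sense foreign RNA and DNA, block viral replication, tag proteins with the ubiquitin-like ISG15 and load peptides onto MHC class I. In the retina, microglia, Mueller glia, vessels and neurons can all run this response, so in whole tissue a level is a sum over cells, and fewer cells of a type cannot be told apart from less RNA per cell.

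The letters of that response element were looked for first, since they are a feature that the member list did not use. The search took GAAA followed after any 2 bases by a second GAAA, on both strands, in windows of 300 bases around gene starts (250 before and 50 from the start on), from RefSeq on build GRCm38.p6. A window was given for 30 of the 39 members, and 17 of these (56.7%) held the motif, against 1079 of 27025 genes with a window (3.99%). The 6 stretches that follow are those of the 3 motif-holding members brightest in WT (Stat2, B2m, Isg15) and of the next 3 by size of difference (Rsad2, Ddx58, Gbp2). Capitals mark the motif in either orientation, and each stretch reads 5′ to 3′ along the gene's strand. In Isg15 there are 3 matches that overlap.
Stat2, chr10:128270248-128270325, plus strand: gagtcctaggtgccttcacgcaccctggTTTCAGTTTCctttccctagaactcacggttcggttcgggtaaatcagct
B2m, chr2:122147508-122147597, plus strand: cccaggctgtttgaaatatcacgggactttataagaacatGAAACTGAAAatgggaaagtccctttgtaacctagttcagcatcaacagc
Isg15, chr4:156200835-156200936, minus strand: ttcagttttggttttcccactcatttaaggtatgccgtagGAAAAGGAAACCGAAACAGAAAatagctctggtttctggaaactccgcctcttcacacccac
Rsad2, chr12:26456523-26456612, minus strand: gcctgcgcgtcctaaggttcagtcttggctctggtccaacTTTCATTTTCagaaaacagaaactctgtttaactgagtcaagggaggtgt
Ddx58, chr4:40239776-40239863, minus strand: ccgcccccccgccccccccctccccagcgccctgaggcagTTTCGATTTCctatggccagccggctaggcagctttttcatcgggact
Gbp2, chr3:142620564-142620653, plus strand: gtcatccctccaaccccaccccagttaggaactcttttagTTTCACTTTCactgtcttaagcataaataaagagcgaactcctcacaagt

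Values are the scanner software's background-subtracted signal of a spot, in arbitrary intensity units. A level is log2 of that signal relative to the array's 75th percentile, a signal of 807 for WT and of 858 for the Mef2d KO-labelled array. A difference is the level on the Mef2d KO-labelled array minus that in WT, for the gene's brightest probe. Its ± is the scanner software's error model for 1 spot on each array and leaves out variation between animals and dissections. The flag "well above background" is the scanner software's own. Of the 37 genes, 34 carried it on both arrays by their brightest probe, Ifit1 and Cxcl10 carried it on the Mef2d KO-labelled array only, and Oas3 on neither.

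Facts about the arrays as a whole frame these values. Mef2d itself did not mark the array: its brightest probe had a signal of 758 in WT and 1083 on the Mef2d KO-labelled array (0.43 ± 0.20), and its place relative to any deletion is unknown here. Directions are therefore those of the Mef2d KO-labelled array. Xist was at least 52.6-fold higher on that array, so the arrays are not matched for sex, and genotype and sex cannot be told apart. All 19 retinal neuron markers checked were well above background on both arrays. Lens and cornea markers differed between the arrays, with 13 of 14 at least 2-fold lower on the Mef2d KO-labelled array. Among dim genes, those at a mean level of -3 or below, differences over all genes leaned negative, with a median of -0.21 over 3071 genes.

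By their brightest probe, none of the 34 genes read on both arrays was at least 2-fold lower and none at least 2-fold higher, where 1.74% and 0.618% of all 16191 named genes read on both arrays were. At 1.5-fold, none was lower, against 5.45% of all genes, and 2 were higher, Zbp1 and Rsad2, against 2.08% of all genes. With cyclic loess Zbp1 (1.05) and Rsad2 (1.01) passed 2-fold, and with normexp background no member was 1.5-fold higher. The other Zbp1 probe had a negative difference, and without Zbp1 Rsad2 was the 1 member left past 1.5-fold. The differences spanned -0.57 for Ifi44 to 0.71 for Zbp1. The median was 0.076, or 0.031 without Zbp1, beside -0.006 for all genes, and 16 of 34 were negative, beside 51.3% of all genes. When the probes of each gene were averaged in place of taking the brightest, the median was -0.022 beside -0.015 for all genes.

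**Figure D1:**
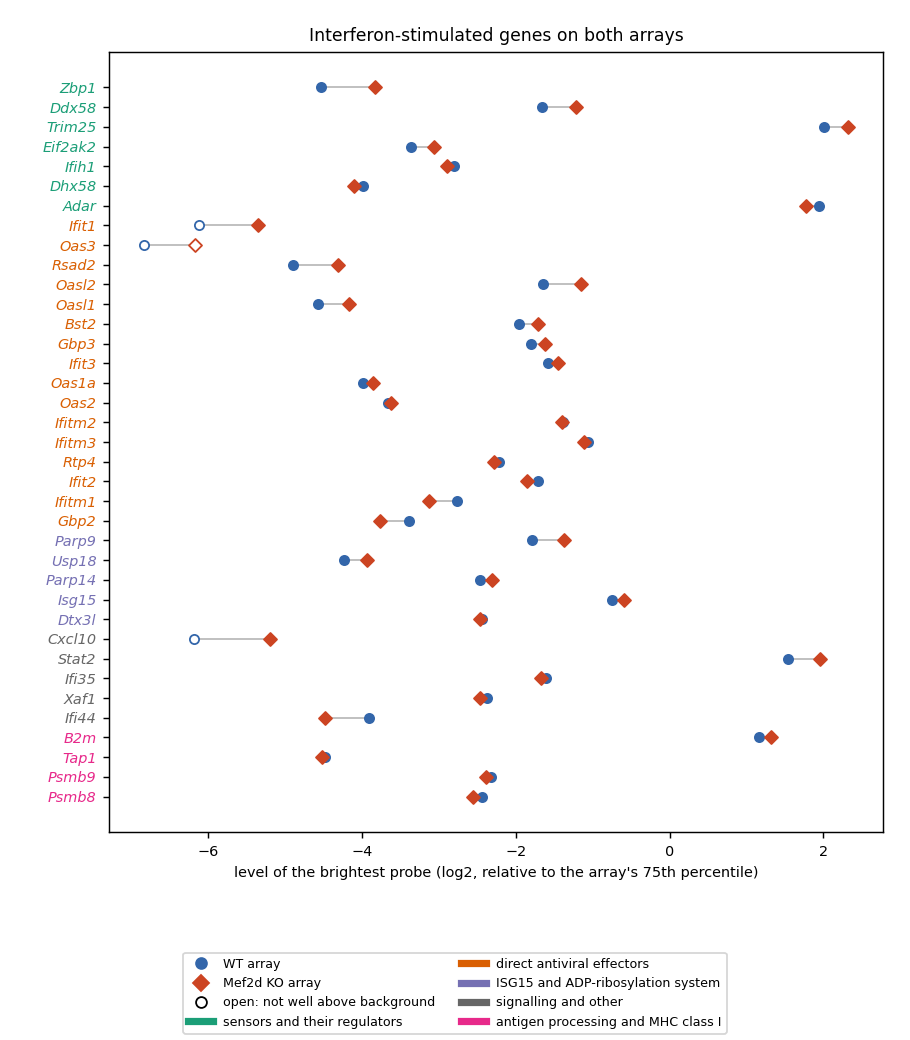
Levels of the 37 measured interferon-stimulated genes (log2 of the brightest probe's signal relative to the array's 75th percentile) on the WT array (circles) and the Mef2d KO-labelled array (diamonds), grouped by role through the colour of the gene names. Most pairs of points lie close together; Ifit1, Cxcl10 and Oas3 have open symbols where the probe was not well above background.

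Of the differences larger than their scanner error, most were positive. Of the 34 genes, 11 had a positive difference larger than its error, 10 without Zbp1, beside 13% of all genes, and 3 a negative one, beside 18.8% of all genes. The 3 negative ones were Ifi44, Gbp2 and Ifitm1. The 11 positive ones came from 4 of the 5 role groups and are described with them. With cyclic loess 16 were positive beyond the error, beside 17.3% of all genes, and none was negative, beside 13%. With the median over a gene's probes 11 were positive beyond it (12% of all genes) and 6 negative (20.5%). Of the 23 members above a mean level of -3, 6 were positive beyond it (13.6% of all genes there) and 1 negative (12.8%).

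The nucleic acid sensors and their regulators comprised 7 genes, all read on both arrays, with a median difference of 0.30 and 3 negative. That median counts Zbp1 by its brightest probe, although the Zbp1 probes differ in sign. With the probes of each gene averaged, Ifih1 (-0.35), Adar (-0.24), Dhx58 (-0.12) and Zbp1 (-0.09) were negative. Ddx58 (0.40), Trim25 (0.30) and Eif2ak2 (0.30) were then positive. The Ifih1 average takes in a probe not well above background on either array. Ddx58 encodes RIG-I, a cytosolic sensor of viral RNA ends. Its brightest probe had a signal of 255 in WT and 371 on the Mef2d KO-labelled array, a difference of 0.45 ± 0.21. The dimmer Ddx58 probe went from 23.1 to 31.2 (0.35 ± 0.32), so both probes had the same sign. Trim25, the ubiquitin ligase that activates RIG-I, had signals of 3262 and 4269 (0.30 ± 0.20). Eif2ak2, the RNA-activated kinase PKR that halts translation, had signals of 78.8 and 103 (0.30 ± 0.22). These 3 genes stayed positive under the 5 other scalings tried.

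Ifih1, Dhx58 and Adar had negative differences within their errors by their brightest probes, while the dimmer Adar probe went past its error. Ifih1 encodes MDA5, a sensor of long double-stranded RNA, and its brightest probe had a signal of 116 on either array (-0.09 ± 0.21). Dhx58, which encodes the regulatory helicase LGP2, had signals of 51.1 and 49.9 (-0.12 ± 0.24). Adar, the editing enzyme that keeps the cell's own double-stranded RNA from being sensed, had signals of 3105 and 2927 by its brightest probe (-0.17 ± 0.20) and of 762 and 655 by the other (-0.31 ± 0.20). The dimmer Adar probe was negative under every scaling tried, from -0.32 to -0.13.

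Zbp1, a sensor of Z-form nucleic acid that can trigger necroptosis, gave the largest difference of the 34 and also probes of opposite sign. The probe brighter on average had a signal of 34.8 in WT and 60.3 on the Mef2d KO-labelled array, a difference of 0.71 ± 0.27. The other, matched to a different Zbp1 transcript accession, had signals of 38.2 and 22.0 (-0.89 ± 0.34). Both probes were dim but well above background on both arrays. Of 4580 genes with more than 1 probe well above background on an array, 0.371% had probe differences at least as far apart as the 1.59 seen for Zbp1. With normexp background correction the probes stood at 0.43 and -0.19. Averaged over both probes Zbp1 differed by -0.09, so no direction for the gene can be read from these arrays.

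Among the direct antiviral effectors, 14 of 18 listed genes were read on both arrays, with a median difference of 0.076. The oligoadenylate synthetase family senses double-stranded RNA and activates RNase L, an activity that mouse Oasl1 lacks and Oasl2 has kept. Oasl2 had a signal of 258 in WT and 388 on the Mef2d KO-labelled array (0.50 ± 0.21), and Oasl1 had 34.0 and 47.7 (0.40 ± 0.26). The differences of Oas1a and Oas2 were smaller, with Oas1a at 51.2 and 59.1 (0.12 ± 0.24) and Oas2 at 64.0 and 69.5 (0.03 ± 0.23). Oas3, at signals of 7.10 and 11.9, was not well above background on either array and has no fold. Oasl1 and Oasl2 are neighbours in the gene order, which here means within 5 protein-coding genes, and both were positive. Besides this pair, 5 groups of neighbours had more than 1 member read on both arrays. Psmb9, Tap1 and Psmb8 were all negative, as were Ifitm1, Ifitm2 and Ifitm3, and the other groups held both signs. Of the genes in these negative groups, only Ifitm1 kept its sign under the 5 other scalings.

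Rsad2 encodes viperin, an enzyme that makes a chain-terminating nucleotide against viral polymerases. It had signals of 27.0 and 43.4, a difference of 0.59 ± 0.29, the second of the 34 to pass 1.5-fold. The value depended on how the dim range was treated, at 1.01 with cyclic loess and 0.21 with normexp background. Bst2, the tetherin that holds budding virions at the membrane, had signals of 208 and 262 (0.25 ± 0.21).

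The IFIT proteins bind viral RNA caps and ends. Ifit2 had signals of 248 and 236 (-0.15 ± 0.21) and Ifit3 of 270 and 315 (0.13 ± 0.21), both within their errors. Ifit1 was not well above background in WT, where its signal was 11.6, and had 21.1 on the Mef2d KO-labelled array. By its bound it was at least 1.36-fold higher there, where a bound sets the bright array against whichever is higher on the dim array, its lowest level well above background or the level of the probe in question. With normexp background the Ifit1 difference was 0.16.

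The interferon-induced transmembrane proteins, which stop viruses from fusing with endosomes, had negative differences, clearest for Ifitm1. Ifitm1 had signals of 119 and 98.0 (-0.37 ± 0.21), Ifitm2 of 309 and 327 (-0.01 ± 0.21) and Ifitm3 of 386 and 397 (-0.05 ± 0.20). For Ifitm2 and Ifitm3 the signals were slightly higher on the Mef2d KO-labelled array and the levels slightly lower, since levels are relative to the 75th percentile. The Ifitm3 probe was printed in 10 spots on each array, and the differences of paired spots ranged from -0.29 to 0.21 with an SD of 0.14. That range is a direct measure of spot-to-spot noise at this brightness.

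Guanylate-binding proteins, GTPases that attack the membranes of intracellular pathogens, and a transport protein completed the effectors. Gbp2 had signals of 77.4 and 63.2 (-0.38 ± 0.23) while its neighbour Gbp3 had 232 and 279 (0.18 ± 0.21). Rtp4, an interferon-induced chaperone of receptors, had 174 and 177 (-0.06 ± 0.21). The negative Gbp2 value shrank to -0.02 with normexp background.

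The ISG15 and ADP-ribosylation group had 5 genes read on both arrays, with a median difference of 0.15. Isg15 itself had signals of 482 and 568 by its brightest probe (0.15 ± 0.20). Its other probe was dim, with 37.0 and 28.1 (-0.49 ± 0.29). Usp18, the protease that removes ISG15 and damps receptor signalling, had signals of 42.9 and 56.1 (0.30 ± 0.25). Parp9, an ADP-ribosyltransferase that works in a complex with the ubiquitin ligase Dtx3l, had 234 and 331 (0.41 ± 0.21). Dtx3l had 149 and 156 by its brightest probe (-0.02 ± 0.21), although it is a neighbour of Parp9 in the gene order. The other Dtx3l probe was dim, with 21.2 and 15.8 (-0.51 ± 0.41), and the average over both probes was -0.27. Parp14, a larger enzyme of the same family and a neighbour of both, had 147 and 173 (0.15 ± 0.21).

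**Figure D2:**
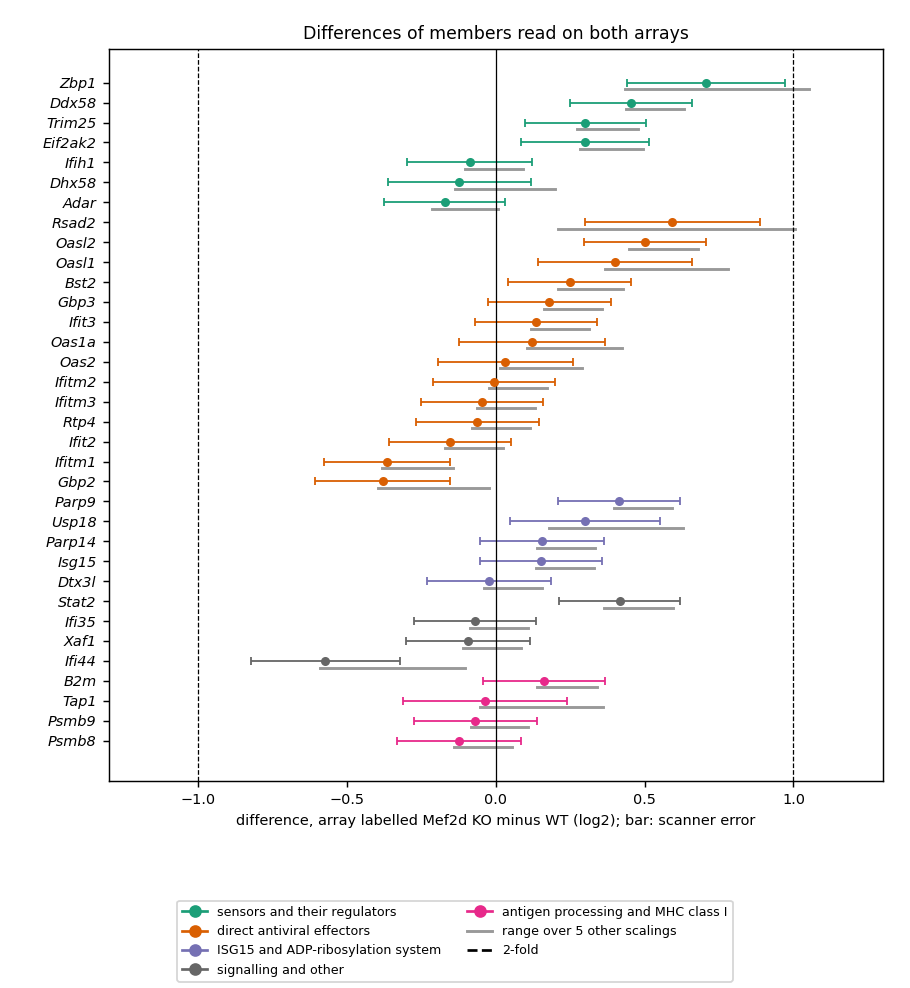
Difference of each of the 34 interferon-stimulated genes read on both arrays (log2, array labelled Mef2d KO minus WT; bars are the scanner software's error), grouped and coloured by role, with grey lines for the range over 5 other scalings and dashed lines at 2-fold. All points lie inside the dashed lines, from -0.57 for Ifi44 to 0.71 for Zbp1.

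Of the signalling and other members, Stat2, the STAT specific to type I and III interferon signalling, had a signal of 2348 in WT and 3329 on the Mef2d KO-labelled array. Its difference of 0.42 ± 0.20 kept its sign under all 5 other scalings, at 0.36 to 0.59. Ifi35, a partner of the STAT-binding protein NMI, had signals of 265 and 268 (-0.07 ± 0.21). Ifi44, a cytoplasmic protein with antiviral and antiproliferative activity, had 53.7 and 38.3 (-0.57 ± 0.25), the most negative value of the 34. It was -0.11 with normexp background and stayed negative under all 5 other scalings. Cxcl10, a chemokine that draws T cells, had signals of 11.1 and 23.4 and was not well above background in WT. By its bound Cxcl10 was higher on the Mef2d KO-labelled array by at least 0.59 on the log2 scale. Its plain difference with normexp background was smaller, at 0.40. The bounds of Ifit1 and Cxcl10 leave out the scanner error, which was 0.49 and 0.55 for their plain differences.

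Ifit1 and Cxcl10 were thus the members read on 1 array only, and both were read on the Mef2d KO-labelled array. Of all 20666 named genes, 0.663% were read on that array only and 4.46% on the WT array only, beside 2 and 0 of the 37 members. Among 60 other interferon-stimulated genes with a probe, 1 (Ifit1bl1) was read on that array only. Another 3 (Slfn5, Epsti1 and Ifi209) were read on the WT array only. Over all genes read on 1 array only, 137 of 1059 (12.9%) were read on that array. Of those 137, 17.5% had a bound of at least 1.5-fold, and 4.38% of at least 2-fold.

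Xaf1, a pro-apoptotic antagonist of the inhibitor of apoptosis proteins, had probes that disagreed more than those of any other member. Its brightest probe had a signal of 156 in WT and 155 on the Mef2d KO-labelled array (-0.09 ± 0.21). The other probe had 3.81 in WT, not well above background, and 90.2 on the Mef2d KO-labelled array. By its bound that probe was at least 5.80-fold higher, and its difference was 1.22 with normexp background. Both probes are matched to the same Xaf1 transcript accession, and their places within the transcript are unknown here. Of 192 named probes read on the Mef2d KO-labelled array only, 1.56% had a bound at least as high. Of the 4580 genes with more than 1 probe well above background on an array, 2.01% had probe differences at least 1 apart on the log2 scale, and 0.109% had them at least as far apart as Xaf1. The probes give no common direction for the gene.

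**Figure D3:**
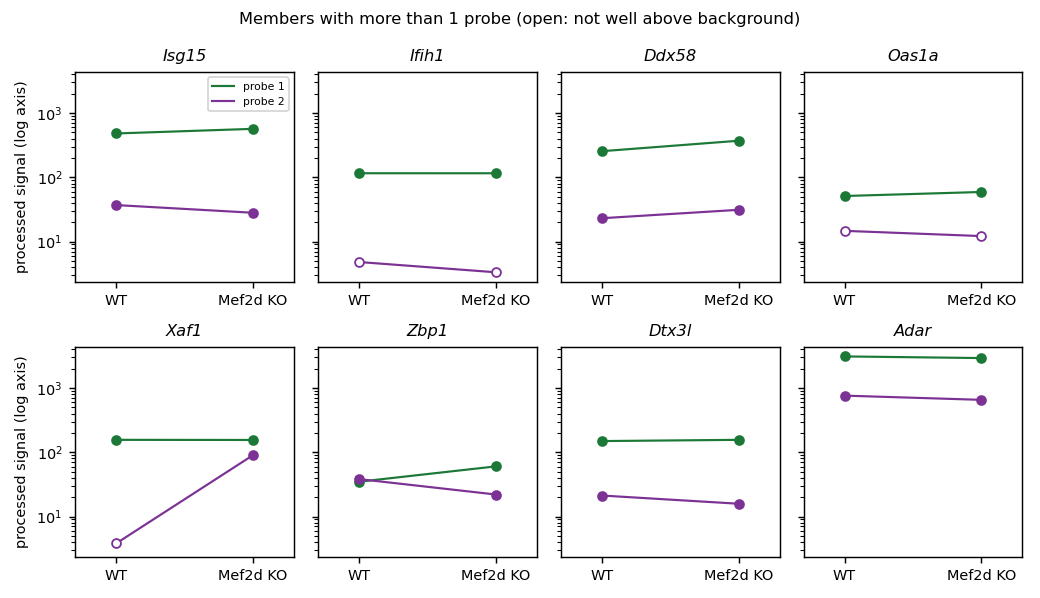
Processed signal (log axis) of every probe of the 8 members with more than 1 probe, on the WT array and the Mef2d KO-labelled array; open symbols are not well above background. The second Xaf1 probe goes from 3.81 to 90.2 while the first stays at 156 and 155, and the Zbp1 probes cross.

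Antigen processing members were the most even group. B2m, the light chain of every MHC class I molecule, had a mean signal of 1809 in WT and 2150 on the Mef2d KO-labelled array (0.16 ± 0.20). Psmb8 and Psmb9, the interferon-induced catalytic subunits of the immunoproteasome, had 149 and 145 (-0.12 ± 0.21) and 162 and 164 (-0.07 ± 0.21). Tap1, a subunit of the peptide transporter, lies between them in the gene order. Its 10 spots had signals of 25.0 to 46.3 in WT and 31.7 to 47.0 on the Mef2d KO-labelled array, so the ranges overlapped. The paired Tap1 spots differed by -0.63 to 0.40 (mean -0.04, SD 0.29), with 5 of 10 negative. At this brightness, single-spot differences as large in size as those of Rsad2 and Ifi44 thus occurred among spots of 1 probe, on the negative side only. None of the 4 genes had a difference larger than its error.

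The members' differences were then read against level, because the dim end of these arrays leans negative. Of 23 members above a mean level of -3, 12 were negative and the median was -0.008, beside 46.2% negative and a median of 0.014 for all 13120 genes in that range. Of 11 members at or below it, 4 were negative and the median was 0.12, beside 72.7% negative and a median of -0.21 for all genes in that range. At 1.5-fold, none of the 23 brighter members was lower (2.18% of all genes there) or higher (1.87%). Of the 11 dim ones none was lower (19.4%), and the 2 higher ones were Zbp1, whose probes differed in sign, and Rsad2 (2.96%). By their brightest probe, most dim members thus had a positive difference, where most dim genes had a negative one. That majority counts Zbp1 and Oas1a, which were negative with their probes averaged (-0.09 and -0.12). The Oas1a average takes in a probe not well above background on either array. With normexp background, which compresses dim differences, the median over the 34 was 0.13 beside 0.018 for all genes.

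**Figure D4:**
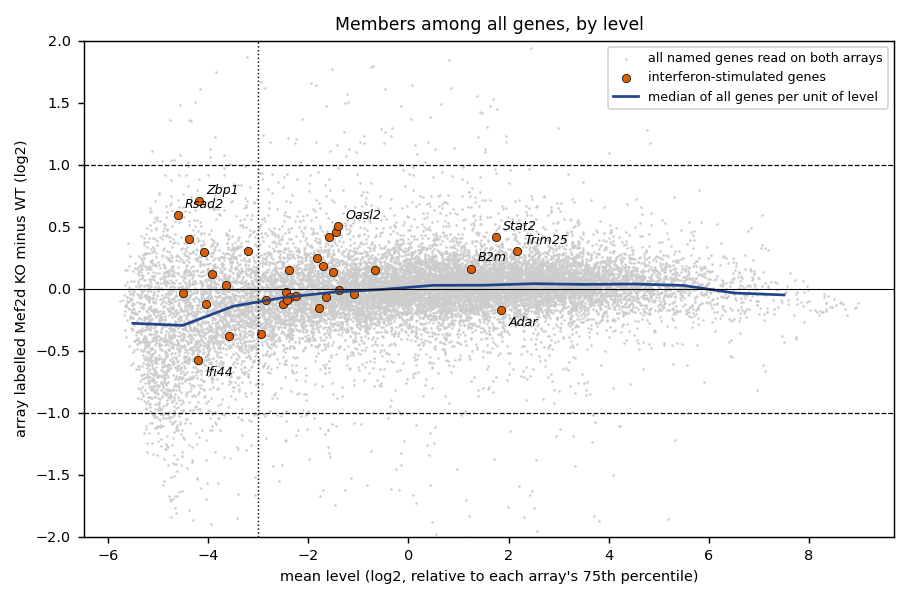
Difference (log2, array labelled Mef2d KO minus WT) against mean level for all 16191 named genes read on both arrays (grey), with the 34 interferon-stimulated genes in orange and the median of all genes per unit of level as a line; 59 genes lie outside the drawn range. The line is well below 0 left of the dotted line at -3. There 7 of the 11 members, Zbp1 and Oas1a among them, have positive differences by their brightest probe.

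Members were also set out by whether their promoter window held the response-element letters, leaving out those read on both arrays that had no window. The 14 with the motif read on both arrays had a median difference of 0.16, from -0.38 to 0.59, and 4 were negative. The 13 with a window and no match had a median of -0.07, from -0.57 to 0.50, and 10 were negative, so the ranges overlapped over most of their length. Among other genes the median was -0.006 for 441 genes with the motif and -0.006 for 12366 without it. With a longer motif that has a C after the second GAAA, held by 13 of 30 members and 0.944% of genes, the medians were 0.15 and -0.05. The letters TTCNNNGAA, those of the gamma-activated site, were in the windows of 8 of 30 members and 9.55% of genes, and these 8 had a median of -0.06, beside 0.13 for the 19 without. A match in a window is a description of letters, and the groups were not tested against each other.

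Upstream of the members, most interferon genes were dim or not detected. Of 15 interferon ligand genes with a probe, 4 (Ifnb1, Ifna4, Ifne and Ifng) were not well above background on either array. The other 11 had a median of -0.15, 10 of them negative and none at least 2-fold apart, where 72.7% of all dim genes were negative with a median of -0.21. The ligands' median was -0.0068 with normexp background, 0.04 with cyclic loess and 0.01 with quantile normalization. With the mean or the median over a gene's probes it was -0.36. Ifnl3, a type III interferon gene named after its value was seen, was the 1 ligand above a level of -3 and differed by -0.29 ± 0.21. The most negative were Ifna11 (61.5 and 33.2, -0.97 ± 0.25), Ifnk (-0.85 ± 0.32), Ifna2 (-0.43 ± 0.26) and Ifna5 (-0.36 ± 0.23). These 4 were dim probes, and Ifna genes are near copies of each other, so a probe may read several of them. With normexp background these 4 stood at -0.37, -0.17, -0.01 and -0.07. The probes of Ifna2 ranged from -2.29 to -0.43.

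The receptors and kinases that carry the signal were close to equal. All 9 were read on both arrays, none was 1.5-fold apart, and the median was 0.11. Ifnar1 and Ifnar2, the chains of the type I interferon receptor, differed by 0.28 ± 0.20 and 0.15 ± 0.20. Ifngr1, the ligand-binding chain of the type II receptor, differed by -0.09 ± 0.20, the kinase gene Tyk2 by 0.12 ± 0.20 and the dim type III receptor gene Ifnlr1 by 0.49 ± 0.31.

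Among 9 STAT and IRF factors, 8 were within 1.5-fold and 1 was not. Irf9, the DNA-binding partner of STAT2, had signals of 1098 and 1317 (0.17 ± 0.20). Irf8, Irf2 and Irf5 differed by 0.27, 0.23 and -0.26. Irf7, the factor that amplifies interferon production and is itself interferon-induced, had signals of 194 and 39.1, a difference of -2.40 ± 0.24, or -1.32 with normexp background. Its direction was thus opposite to that of Stat2, and far outside the range of the 34 members.

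Sensing genes and negative regulators each held 1 gene past 1.5-fold, Tlr3 and Tnfaip3, both lower. Of 14 sensing genes read on both arrays none was 2-fold apart. Tlr3, an endosomal receptor for double-stranded RNA, differed by -0.76 ± 0.33 (-0.09 with normexp background), Cgas, the cytosolic DNA sensor, by -0.49 ± 0.22, with its probes ranging from -0.89 to 0.20, and the Toll-like receptor adaptors Ticam1 and Myd88 by 0.43 ± 0.21 and 0.40 ± 0.20. Of 13 genes listed as negative regulators, Tnfaip3, a ubiquitin-editing enzyme that restrains NF-kB, was the 1 past 2-fold, with signals of 12732 and 3302 (-2.03 ± 0.20). Socs3, a feedback inhibitor of JAK kinases, differed by -0.35 ± 0.20, Isg20, an antiviral exonuclease, by 0.32 ± 0.21 and Trim24 by 0.25 ± 0.20.

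Other interferon-stimulated genes, listed apart from the members, were close to all genes in sign and median. Of 51 read on both arrays, 28 were negative, where 51.3% of all genes were, and the median was -0.05. That median was positive with quantile normalization (0.05), cyclic loess (0.05), normexp background (0.04) and median scaling (0.13), and above a level of -3 (0.05). At least 2-fold lower were 2 (1.74% of all genes), and none was higher. At 1.5-fold, 5 were lower (5.45% of all genes) and none higher. The 5 were Slfn8 (-1.20 ± 0.30), Mlkl, the executor of necroptosis (-1.18 ± 0.23), Slfn2 (-0.94 ± 0.32), Mndal (-0.81 ± 0.24) and Tgtp1 (-0.67 ± 0.26), the last of them chosen after its value was seen. With normexp background Slfn8 and Mlkl stood at -0.32 and -0.49. None of the 34 members was 1.5-fold lower, so the lists differ in that count, with no test of the difference.

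Antigen processing and MHC class I genes outside the member list had a median of 0.10 over 19 genes, which include peptide transport, loading and chaperone genes beside the heavy chains. H2-K1 and H2-D1, the classical heavy chains, had signals of 921 and 1358 and of 1656 and 2441, differences of 0.47 ± 0.20 each. Heavy-chain genes are near copies, so the 2 values may not be separate. Nlrc5, the transactivator of MHC class I genes, had signals of 18.6 and 40.3 (1.03 ± 0.37, and 0.43 with normexp background), the 1 gene of that list past 2-fold. H2-T24, a non-classical gene, differed by -0.44 ± 0.21. Constitutive proteasome subunits all lay within their error over 14 genes, with a median of 0.07. The most different were Psma4 (0.17), Psma7 (0.15), Psma5 (0.12) and Psma1 (0.12).

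Markers of cells that can carry interferon-stimulated transcripts did not share a direction. Of 23 microglia and macrophage markers read on both arrays, 19 were positive and the median was 0.31. Cd74 (1.77 ± 0.21) and Ly86 (1.64 ± 0.20), named here after their values were seen, were at least 2-fold higher. The summed level of the list, which is dominated by Siglech, was 194 in WT and 185 on the Mef2d KO-labelled array, in units of the 75th percentile signal, and Cd163 was not well above background on either array. Siglech, Itgam and Csf1r, the 3 brightest, differed by -0.16, 0.02 and 0.26. Over all their probes, dim ones included, the differences ran from -0.16 to 0.38, from -0.95 to 0.02 and from -0.17 to 0.26. Each of these genes thus held both signs. The Siglech probe had a signal of 122339 in WT, beside 162461 for the neuron marker Rcvrn. Whether that probe reads microglia was not tested, so the summed level may not follow them. The part of microglial content in the members' values was not tested.

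Of 16 blood and leukocyte markers 9 were positive, with a median of 0.04 and summed levels of 90.1 and 102, and Cd3d, Ms4a1, Klrb1c and Ccr7 were not well above background on either array. Its brightest genes were the globins Hba-a2 (0.15), Hba-a1 (0.29) and Hbb-bt (0.37). Of 18 vascular markers 17 were negative, with a median of -0.22 and summed levels of 32.0 and 29.8, led by Kdr (-0.04), Cldn5 (-0.17) and Flt1 (0.06). Among the 14 Mueller glia and astrocyte markers 11 were negative, with a median of -0.14 and summed levels of 292 and 273. The 3 brightest were Dkk3 (0.07), Glul (-0.17) and Apoe (0.08), so Dkk3 and Apoe did not share the sign of most. The 11 pigment epithelium and choroid markers had a median of 0.17 and summed levels of 48.4 and 53.6, with Dct at 0.13, Ttr at 0.10 and Rdh5 at 0.13. The 14 lens and cornea markers had summed levels of 208 and 48.6, led by Cryaa (-2.15), Crygs (-2.10) and Cryab (-1.83). The 19 retinal neuron markers had a median of -0.11 and 12 were negative, led by Nrl (0.02), Gnat1 (-0.43) and Rcvrn (-0.38). Sag (-0.82 ± 0.20), named after its value was seen, was the 1 of them at least 1.5-fold lower, beside 5.45% of all genes. The part of these other cell types was not tested either.

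**Figure D5:**
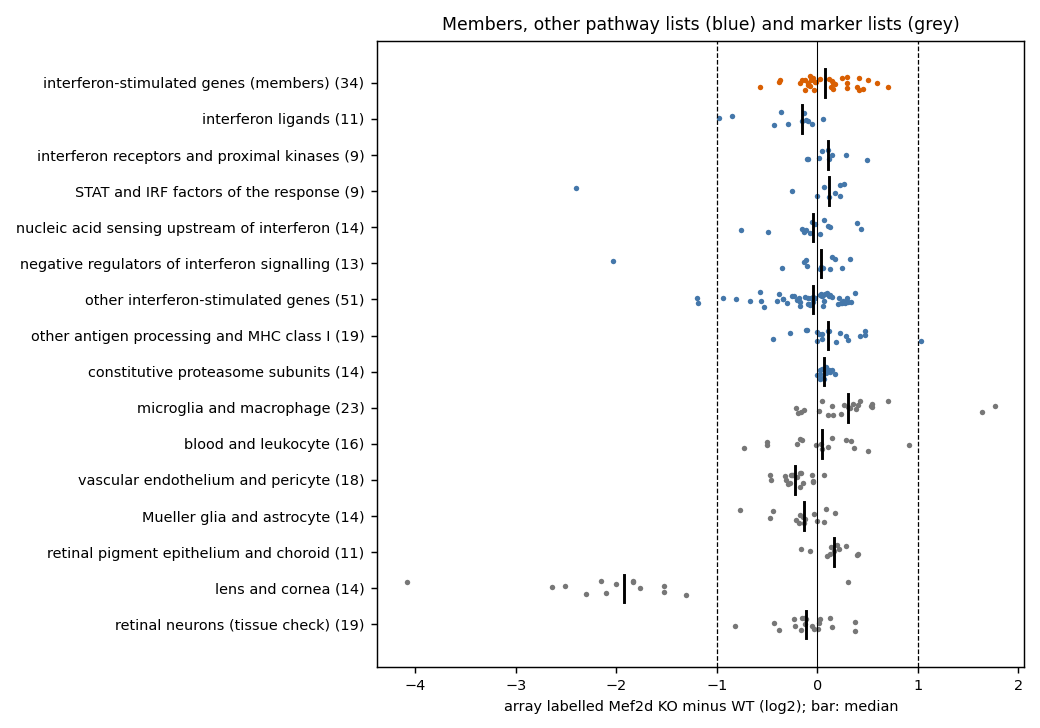
Difference (log2, array labelled Mef2d KO minus WT) of each gene read on both arrays, for the interferon-stimulated members (orange), 8 other lists of the pathway (blue) and 7 lists of cell type markers (grey); the number of genes is in brackets and the bar is the median. The members lie between -0.57 and 0.71, while Irf7 (-2.40) and Tnfaip3 (-2.03) stand apart in their lists.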

How the data were processed

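Cy3-labelled retinal RNA was hybridised to 2 one-colour Agilent arrays (1 WT, 1 Mef2d KO). Agilent Feature Extraction 10.10.1.1 produced the deposited intensity values, per the file headers, with no scaling between arrays. Its flags (other columns) gave control type, outlier and background status. The authors' deposited series table holds the same intensities times a constant per array (1.88 and 1.76; medians 155.1 and 136.6), whose origin the sources used here do not state.

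From these, log2 signals were centred on each array's 75th percentile over 59305 probe spots. Control and outlier spots (106 and 126) were left out and spots of 1 probe averaged. A probe counted as well above background where at least 50% of its spots were. RefSeq accessions named 48.9% of 55669 probes through GRCm38.p6 symbols; the design names mm9, so no probe position was taken. Each gene was represented by its brightest probe. Counts used 2-fold and 1.5-fold limits (0.585 on the log2 scale). Alternatives were other scalings, normexp background (offset 50, on median spot signals, then quantile normalization), the series table, other probe rules and filters.

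The members, lists and rules were chosen with earlier results of these data known. All measured members are named; of other lists, the 4 largest differences or 3 brightest markers, and a few fixed genes, 1 of which is not reported here. Scripts, tested on simulated data, used R 4.3.3, limma 3.58.1, Python 3.11.15, numpy 2.4.6, pandas 2.3.3 and matplotlib 3.10.9. The number of arrays limits the precision.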

Additional observations from a re-analysis of the deposited data

How the results depend on the processing

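With 1 array per group no replicate could be left out. No paired analysis was possible because each group holds 1 array. The count of members at least 2-fold higher, 0 here (100 of 16191 genes), was 2 with cyclic loess (154 genes) and 1 with quantile normalization (157 genes). It was 1 with the mean or median over a gene's probes (98 genes each). No setting tried put a member 2-fold lower. At 1.5-fold the 2 higher members (336 of 16191 genes) became 6 with median scaling (705 genes) and 4 with cyclic loess (593 genes). The 75th percentile over detected probes gave 1 higher (317 genes) and 1 lower (928 genes). Normexp background gave 0 (233 of 16190), as did a level above -3 (245 of 13120). Genes read on at least 1 array gave 4 (407 of 17261), and no filter gave 5 (616 of 20666). Both of these counts take plain folds of Ifit1 and Cxcl10, and the latter also of Oas3, from probes not well above background in WT. Without Zbp1, a setting added after seeing the data, 1 was left. Negative members, 16 of 34, numbered 10 with normexp (44.8% of all genes), 3 with median scaling (22.6%, since it raises every gene alike), and 8 each with cyclic loess (46.1%) and quantile normalization (44.6%). The median of 0.076 became 0.25 with median scaling (which moved all genes to 0.17), 0.19 with cyclic loess, 0.17 with quantile normalization, 0.13 with normexp, 0.13 with genes read on at least 1 array, 0.13 with no filter, 0.13 without Psmb8, Psmb9, Tap1 and B2m and 0.031 without Zbp1; it turned to -0.022 with the mean and -0.022 with the median over probes, and to -0.0080 above a level of -3. Zbp1 turned to -0.090 with the mean and -0.090 with the median over its probes. Of 296 member differences recomputed, 258 moved by less than their error, but many of these could not have moved further. Median scaling, the 75th percentile over detected probes and the series table shift all genes nearly alike, by less than any member's error. Averaging probes leaves the 29 members with 1 probe unchanged. The count of 258 therefore does not measure how stable the differences are. The cause of these shifts was not tested. Dim probes limit what can be read.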
